A study of Mus musculus with 180 samples.

Results

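Total RNA of a membrane fraction of the mouse hippocampus was set against total RNA of the cytosolic fraction of the same mice. The labels divide 180 libraries into 2 antibody captures and an uncaptured Input. The 60 Input libraries were chosen by their titles: 30 from the membrane fraction (PELL, the pellet of the centrifuged homogenate) and 30 from the cytosolic fraction (SUP, its supernatant). The 2 libraries that carry the same mouse number were paired, and the difference was averaged over the 4 training by sleep groups.

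The groups were 7 CFC SD mice (contextual fear conditioning, then sleep deprivation), 8 CFC Sleep mice (conditioning, then sleep), 7 NoCFC SD mice and 8 NoCFC Sleep mice. All were males of a cross that joined the Tg(Camk2a-cre)T29-1Stl transgene with the Rpl22tm1.1Psam allele, from a B6.Cg and a B6N.129 line. Cre driven by a Camk2a promoter makes excitatory neurons carry an HA-tagged ribosomal protein Rpl22, but Input was taken before any antibody. The length of sleep deprivation is not in the labels. The labels give the Input cell type as neuron, yet defining transcripts of glia and vessels were present: the astrocyte-rich Apoe had a median of 9080 CPM (counts scaled to the size of each library, with TMM factors) in membrane and 672 CPM in cytosolic libraries.

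Total counts ran from 11.98 to 23.95 M in membrane and from 13.4 to 25.4 M in cytosolic libraries. Mice 1 to 11 were all NoCFC and mice 12 to 22 all CFC, and only mice 23 to 30 held every group, so training and mouse number cannot be told apart in the first 22 mice. Some pairs stood apart. Over 10193 well-expressed genes, the membrane-to-cytosolic log2 ratios of a mouse correlated with the median of the other 29 mice at 0.900 to 0.988 (median 0.983), and mice 22, 6, 16 and 30 were lowest, at 0.900, 0.915, 0.922 and 0.944. Leaving those 4 mice out gave 3930 genes higher and 1226 lower in membrane RNA, against 3627 and 1516 with them.

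Cells make secreted and membrane proteins at the endoplasmic reticulum (ER). A signal recognition particle binds a hydrophobic stretch as it leaves the ribosome, either a signal peptide at the start of the protein or a later membrane-spanning segment, and brings the ribosome with its mRNA to the Sec61 channel of the ER. Proteins of the cytosol, the nucleus and most of the mitochondrion are made on free ribosomes, and tail-anchored proteins, whose only membrane segment lies at the very end, enter the membrane after synthesis. A pellet can also hold mitochondria, with the transcripts of their own genome, and nuclei. In bulk RNA, fewer cells of a type and less RNA per cell cannot be told apart.

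The coding stretches below are examples, picked by name, of transcripts that were higher or lower in the membrane fraction. Each is 105 bases long, written 5′ to 3′, from a GENCODE vM21 transcript on GRCm38. Capitals mark the codons of the most hydrophobic window: 12 residues near the start of the protein (mean Kyte-Doolittle hydropathy of at least 2) or 19 residues near its end (mean of at least 1.6). The first 4 are coding starts of Sparc (a secreted matrix protein, chr11:55394500-55423183, minus strand), Sst (the neuropeptide somatostatin, chr16:23889573-23890958, minus strand), Ctsd (the lysosomal protease cathepsin D, chr7:142375911-142388038, minus strand) and Cacna2d1 (the extracellular α2δ subunit of calcium channels, chr5:15934691-16374511, plus strand).
Sparc: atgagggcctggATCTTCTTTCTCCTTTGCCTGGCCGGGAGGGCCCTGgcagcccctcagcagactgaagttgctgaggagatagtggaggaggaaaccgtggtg
Sst: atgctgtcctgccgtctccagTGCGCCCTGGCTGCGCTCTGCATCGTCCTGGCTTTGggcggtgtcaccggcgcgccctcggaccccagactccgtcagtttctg
Ctsd: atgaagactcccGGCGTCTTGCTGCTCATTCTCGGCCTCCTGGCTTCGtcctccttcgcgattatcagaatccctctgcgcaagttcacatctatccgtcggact
Cacna2d1: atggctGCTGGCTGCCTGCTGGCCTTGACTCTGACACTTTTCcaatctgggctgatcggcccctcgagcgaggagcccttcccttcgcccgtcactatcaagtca

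A coding start with no such window is shown for a transcript on the other side, that of Cacnb4 (the cytosolic β4 subunit of calcium channels, chr2:52428320-52676831, minus strand).
Cacnb4: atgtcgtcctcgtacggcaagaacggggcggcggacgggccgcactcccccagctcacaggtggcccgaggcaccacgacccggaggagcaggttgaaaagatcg

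Coding ends are shown for 2 tail-anchored proteins, Vamp2 (synaptobrevin 2, the vesicle SNARE, chr11:69088490-69092384, plus strand) and Sec61b (the β subunit of the ER channel, chr4:47474658-47483242, plus strand), whose hydrophobic stretch leaves the ribosome only as synthesis ends.
Vamp2: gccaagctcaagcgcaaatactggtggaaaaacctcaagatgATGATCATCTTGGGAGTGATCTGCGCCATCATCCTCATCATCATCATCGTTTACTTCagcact
Sec61b: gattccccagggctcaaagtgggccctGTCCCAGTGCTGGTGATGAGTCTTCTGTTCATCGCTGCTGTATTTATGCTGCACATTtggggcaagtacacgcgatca

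These transcripts parted cleanly between the fractions. Sst had 580 CPM in its lowest, 715 in its median and 858 in its highest membrane library, against 132, 177 and 256 CPM in cytosolic libraries. The corresponding values of Ctsd were 276, 357 and 411 CPM in membrane and 59.4, 83.2 and 101 CPM in cytosolic libraries, and those of Cacna2d1 were 145, 184 and 218 CPM in membrane and 49.1, 63.4 and 87.9 CPM in cytosolic libraries. For all 3 genes every membrane library was above every cytosolic one. In the paired edgeR fit, with log2 fold changes of membrane over cytosolic and their standard errors, Sst was at 1.99 ± 0.04 (adjusted p = 2.1e-35), Ctsd at 2.09 ± 0.04 (1.0e-35) and Cacna2d1 at 1.54 ± 0.04 (1.7e-30). The opposite order held for Gng2, a γ subunit of G proteins, with 95.5, 114 and 134 CPM in membrane and 343, 416 and 488 CPM in cytosolic libraries. Cacnb4 had 45.6, 56.5 and 72.8 CPM in membrane and 108, 133 and 176 CPM in cytosolic libraries. Again the fractions did not overlap for either gene. Their log2 fold changes were -1.87 ± 0.03 for Gng2 (adjusted p = 1.4e-38) and -1.23 ± 0.03 for Cacnb4 (1.4e-33).

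**Figure D1:**
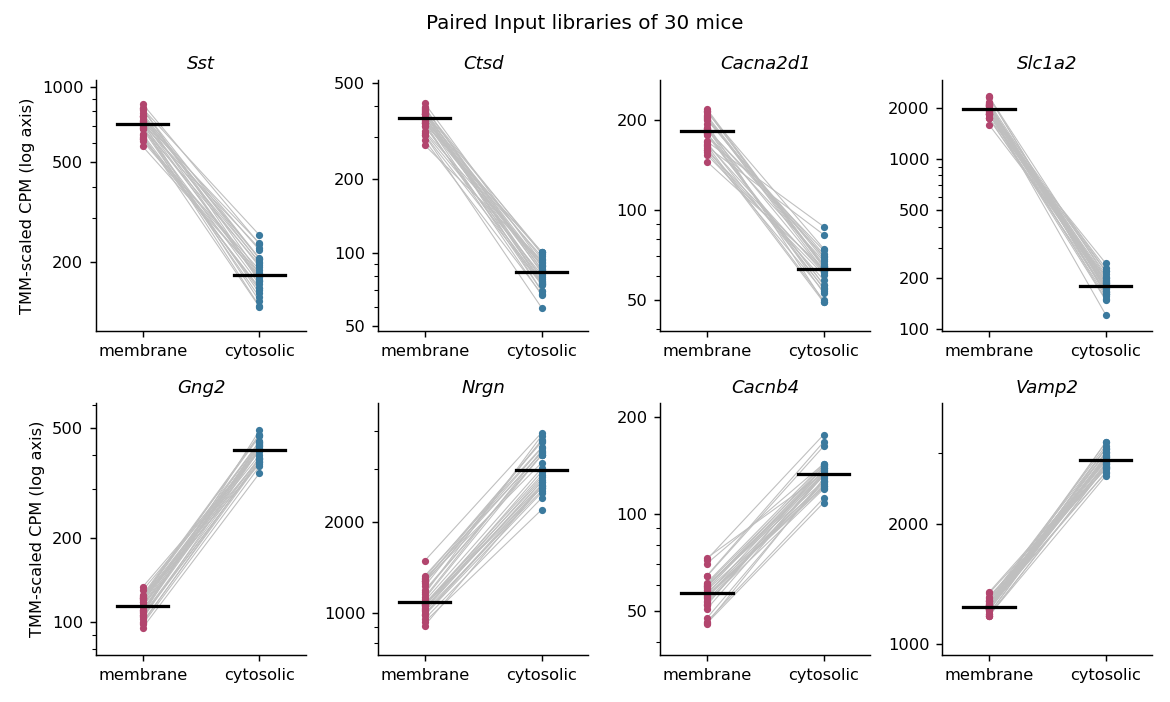
TMM-scaled CPM (log axis) of 8 genes in the membrane (left) and cytosolic (right) Input library of each of 30 mice, joined by a line, with the median as a bar. Sst, Ctsd, Cacna2d1 and Slc1a2 were higher in the membrane library of every mouse, and Gng2, Nrgn, Cacnb4 and Vamp2 lower.

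Across the genome the fractions differed for most genes. Of 16529 genes tested, 3627 were called higher in the membrane fraction (21.9%) and 1516 lower (9.17%), a call needing an adjusted p under 0.05 and at least a 2-fold difference. With no limit on fold, 14758 genes passed (89.3%), 6671 of them higher (40.4%) and 8087 lower (48.9%), and the counts at 2-fold are used below. Membrane and cytosolic libraries did not overlap at all for 3002 genes on the higher side (18.2%) and 3174 on the lower side (19.2%). Of the 5143 called genes, 4340 had the same direction in all 30 mice. Values are relative within a library: the median gene stood at -0.12. With DESeq2 size factors 3933 genes were higher and 1004 lower, and within mice 1 to 11, 12 to 22 and 23 to 30 the counts were 3575 and 1599, 3947 and 888, and 3764 and 1263.

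Among called genes with an average log2 CPM of at least 3 and the same direction in all 30 mice, predicted genes left aside, the 15 with the largest rise were led by Ly6c1 at 4.05 ± 0.06, a surface protein of endothelial cells, and Sparc at 4.02 ± 0.06. Sparc had 779, 998 and 1201 CPM in membrane against 41.9, 59.5 and 91.9 CPM in cytosolic libraries (lowest, median, highest), with no overlap. The others were the endothelial genes Ly6a, Cldn5, Flt1 and Alpl, the secreted Apoe, Igfbp7 and Agt, the heparan sulfate proteoglycan Sdc4, the glutamate transporters Slc1a3 and Slc1a2, the potassium channel Kcnj10, the cytochrome P450 Cyp2d22 and Pbxip1, between 3.42 and 3.88. The 15 genes with the largest fall were smaller in fold, and 13 encode no hydrophobic segment by the rule used below. They were led by the kinase Stk32c at -1.91 ± 0.09 and Gng2. Among them were the calcium sensors Hpcal1 (-1.84 ± 0.04), Vsnl1 (-1.77 ± 0.05) and Calm2 (-1.69 ± 0.03), the G-protein regulator Rgs4 (-1.8 ± 0.03), the tubulin Tuba8, the kinase Wee1 and the kinetochore protein Zwint. Clvs1, Reps2, Klhl11, Tnfaip8l3 and Umad1 lay between -1.82 and -1.70. All 30 showed no overlap between the fractions, as did 18.2% of all genes tested on the higher and 19.2% on the lower side. These 30 were picked by fold and by direction in every mouse, so their lack of overlap is not separate evidence. Exons of Clvs1, Gng2, Igfbp7, Slc1a2, Stk32c, Tuba8 and Umad1 overlap another gene, and since strand was not stated their counts may include its reads.

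The encoded protein separated the fractions over the whole transcriptome. Coding sequences of 14333 tested genes (86.7%) were translated, and hydrophobic segments were counted. Of 1058 genes whose only segment was near the N-terminus, as in a signal peptide, 707 rose and 20 fell, with a median of 1.34. Of 2593 genes with 2 or more segments, 1741 were higher and 17 lower (median 1.25). Of 8783 genes with no segment, 405 were higher and 1146 lower (median -0.45), and over all 14333 genes 3389 were higher and 1312 lower (median -0.11). The class with no segment also held members of the secretory lists below. Of these, 6 of 7 matrix and plasma-type, 6 of 6 neuropeptide or growth factor and 3 of 3 lysosomal genes were higher. So were 2 of 2 ER and 1 of 2 GPI-anchored genes, and 1 vesicle gene was lower. A single segment within the last 40 residues went with the values of proteins with none: 17 of 159 such genes were higher and 25 lower (median -0.49). The class with 1 segment elsewhere was mixed, with 519 of 1740 genes higher and 104 lower (median 0.18). It can also hold proteins with both an N-terminal segment and 1 later segment, which were not separated. At a stricter hydropathy of 1.8 the share called higher in this class was 49.0% rather than 29.8%.

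**Figure D2:**
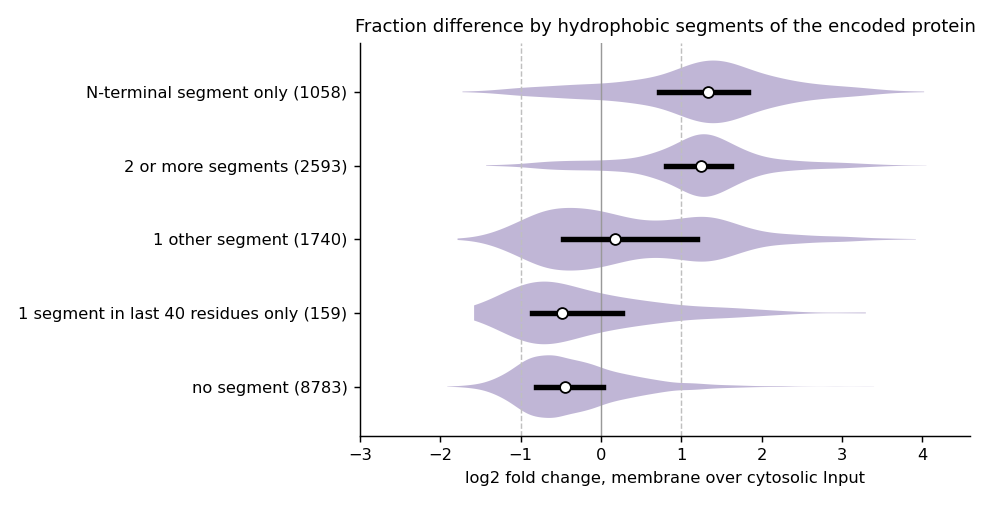
Distribution of log2 fold changes of membrane over cytosolic Input for genes grouped by the hydrophobic segments of the encoded protein (number of genes in brackets), with the median as a point, the quartiles as a bar and dashed lines at 2-fold. Proteins with only an N-terminal segment or with 2 or more segments had medians of 1.34 and 1.25. Those with no segment or with 1 in the last 40 residues lay at -0.45 and -0.49.

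The share of calls grew with the number of segments and levelled off. The share of genes called higher was 6.38% with 0 segments of 19 residues, 40.2% with 1, 60.5% with 2 to 3, 72.5% with 4 to 6, 77.4% with 7 to 11 and 77.8% of 63 genes with 12 or more. The same pattern could be read in the bases. Codons with T in the middle position encode hydrophobic residues, and their share was counted over the 34 codons after the start codon. Where it was under 20%, 13.5% of 4002 genes were called higher, and where it was 50% or more, 67.9% of 209 genes. Among genes with no segment, values also moved with the length of the coding sequence. The median was -0.68 for 1240 genes under 600 bases, -0.62 at 600 to 1200, -0.40 at 1200 to 2400, -0.15 at 2400 to 4800 and 0.13 for 303 genes of 4800 bases or more. The length of the 3′ untranslated region showed no such trend, with medians between -0.48 and -0.40 in 5 bins.

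Soluble cargo of the secretory pathway was higher in the membrane fraction nearly throughout. All 38 lysosomal genes tested rose, with a median of 1.79, from the galactosylceramidase Galc at 1.10 to the protease Ctss at 3.28, and none of their libraries overlapped. Of 38 neuropeptide and growth factor genes, 34 rose and none fell (median 1.52), among them Penk at 1.92 ± 0.06, Npy at 1.84 ± 0.04, Cck at 1.45 ± 0.04 and the granule protein Scg3 at 2.84. The neurotrophin gene Bdnf stayed short of 2-fold, at 0.71 ± 0.04, although its libraries did not overlap (62.1 to 90.9 CPM in membrane, 37.2 to 54.6 CPM in cytosolic libraries). Of 64 genes of extracellular matrix and plasma-type proteins, 56 rose and none fell (median 1.74), from Lamb1, a laminin chain, at 0.50 to Sparc. Over all genes tested the median was -0.12.

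Genes for the machinery of the ER itself were mostly higher in the membrane fraction, apart from tail-anchored subunits of its channel. Of 51 genes of the translocon, glycosylation and ER chaperones, 45 rose and 2 fell (median 1.44). The channel subunit Sec61a1, which crosses the membrane several times, had 90.8, 103 and 126 CPM in membrane and 29.2, 36.3 and 47.7 CPM in cytosolic libraries. The chaperones Hspa5 (BiP) and Calr (calreticulin) were at 1.72 ± 0.06 and 1.68 ± 0.05. The 2 genes that fell encode the small tail-anchored subunits of the same channel: Sec61b had 9.75, 12.5 and 14.6 CPM in membrane and 23.4, 28.6 and 40.5 CPM in cytosolic libraries, and Sec61g had 4.34, 6.09 and 8.31 CPM in membrane and 11.5, 13.5 and 16.9 CPM in cytosolic libraries. No library of one fraction reached the other for these 3 genes. Their log2 fold changes were 1.5 ± 0.04 for Sec61a1, -1.22 ± 0.04 for Sec61b and -1.13 ± 0.05 for Sec61g. The protein subunits of the signal recognition particle, which are cytosolic, all had estimates below 0: 3 of 7 fell (median -0.93), among them Srp14 at -1.17. The other 2 were Srp54a and Srp54c, near-identical copies that reads cannot separate with certainty. Of the 20 enzymes and regulators of cholesterol synthesis that sit in the ER membrane 15 rose (median 1.56), with Cyp51, a sterol demethylase, at 2.23. Of the 9 soluble enzymes of the same pathway none rose and 1, Ggps1 at -1.02, fell (median -0.23), and with DESeq2 size factors it stood at -0.92, short of 2-fold.

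Receptors and channels showed the same division between membrane-spanning subunits and their cytosolic partners. Of 17 ionotropic glutamate receptor genes 13 rose and none fell (median 1.24). The NMDA receptor subunit Grin2b had 325, 424 and 514 CPM in membrane and 119, 158 and 188 CPM in cytosolic libraries, and its log2 fold change was 1.41 ± 0.04. The AMPA receptor subunit Gria2 was at 1.24 ± 0.04, and Gria1 at 0.78 ± 0.04 was the lowest of the list. Of 12 GABA-A receptor genes 8 rose (median 1.38), with the hippocampal subunit Gabra5 lowest at 0.69 ± 0.03. Of 49 genes of voltage-gated channel membrane subunits 35 rose and none fell (median 1.18), whereas of 15 genes of cytosolic channel subunits none rose and 6 fell (median -0.93). Among those that fell were the β subunits Cacnb2 at -1.42 and Cacnb4, the potassium channel subunit Kcnab1 at -1.03 (-0.93 with DESeq2 size factors) and the fibroblast growth factor homologous factors Fgf12 at -1.44 and Fgf14 at -1.42. The contrast between Cacna2d1 and Cacnb4 is therefore one between subunits of the same calcium channels.

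G-protein signalling divided likewise. Of 53 genes of G-protein-coupled receptors 42 rose and none fell (median 1.27), led by Gpr37l1 at 3.26 and S1pr1 at 3.13, 2 receptors rich in astrocytes. The serotonin receptors Htr7, Htr1a and Htr1b had the lowest values, at 0.27, 0.41 and 0.51. Of 25 genes of the heterotrimeric G proteins that these receptors activate 1 rose, Gnai2 at 1.04, and 4 fell, Gng2, Gng3, Gnai1 and Gnb2 (median -0.36). The α and γ subunits of G proteins carry lipid anchors. The small GTPases, lipid-anchored too, had 0 genes higher and 19 of 62 lower (median -0.80), with Rab27b at -1.59 and Rab3a, the vesicle GTPase, at -1.06 ± 0.03 (-0.96 with DESeq2 size factors). Proteins with a GPI anchor, a lipid attached within the ER, went the other way: 36 of 45 rose and none fell (median 1.33), including Prnp (prion protein) at 1.8 and Thy1 at 1.58 ± 0.08. Of 63 synaptic adhesion genes 54 rose and none fell (median 1.2), with Nlgn2 at 1.94 and Ncam1 at 1.75.

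Tail-anchored proteins, which are membrane proteins in the cell, had transcripts on the cytosolic side. None of 55 genes rose and 12 fell, with a median of -0.85, and for 38 of them every membrane library was below every cytosolic one. Vamp2 had 1176, 1240 and 1348 CPM in membrane and 2634, 2892 and 3194 CPM in cytosolic libraries, without overlap, and its log2 fold change was -1.22 ± 0.02. The plasma membrane SNARE Stx1a was at -1.21 ± 0.02 and the ER ubiquitin enzyme Ube2j1, the lowest, at -1.58 ± 0.03. The highest was the apoptosis regulator Bcl2 at 0.97 ± 0.04.

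The synaptic vesicle held both kinds. Of 33 genes of multi-spanning or signal-anchored vesicle membrane proteins 29 rose (median 1.33), among them synaptophysin (Syp) at 1.32 ± 0.04, the calcium sensor Syt1 at 1.3 ± 0.04 and the glutamate transporter Slc17a7 at 1.29 ± 0.05. The only one to fall was Syt17 at -1.01 ± 0.03, a synaptotagmin in which no segment was found. It lay at -0.91 with DESeq2 size factors and at -0.96 without the 4 mice that stood apart, short of 2-fold in both. Of 48 soluble presynaptic proteins 3 rose and 9 fell (median -0.49), with Sncb at -1.62, the NSF attachment protein Napb at -1.63, complexin 1 (Cplx1) at -1.26 and Snap25 at -1.40. The exceptions were the active-zone scaffolds Pclo and Bsn and the priming factor Unc13a, at 1.14. Pclo had 264, 336 and 406 CPM in membrane and 60.4, 70.3 and 96.4 CPM in cytosolic libraries and a log2 fold change of 2.22 ± 0.05, and Bsn was at 1.57 ± 0.07. The proteins of Pclo, Bsn and Unc13a have no hydrophobic segment by the rule used, and their coding sequences are 15207, 11829 and 5139 bases long.

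Postsynaptic scaffold and signalling genes were mixed, with 3 of 41 higher and 5 lower (median -0.15). The scaffolds Shank1 and Shank3 and the dendritic mRNA Ddn rose, at 1.54 ± 0.07, 1.22 ± 0.10 and 1.39 ± 0.03. Nrgn, a calmodulin-binding protein whose mRNA also enters dendrites, fell: it had 911, 1087 and 1492 CPM in membrane and 2199, 2977 and 3953 CPM in cytosolic libraries (-1.44 ± 0.03). Homer1 fell as well, at -1.16 ± 0.03. The kinase Camk2a stood at 0.60 ± 0.07 and the scaffold Dlg4 (PSD-95) at -0.01 ± 0.06. The Camk2a ratio ran from -0.70 to 1.74, and mice 16, 22 and 30 were the 3 lowest, at -0.70, -0.68 and -0.40. The same 3 mice had the lowest ratios of Dlg4, Shank1, Grin1, Thy1 and Bsn.

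**Figure D3:**
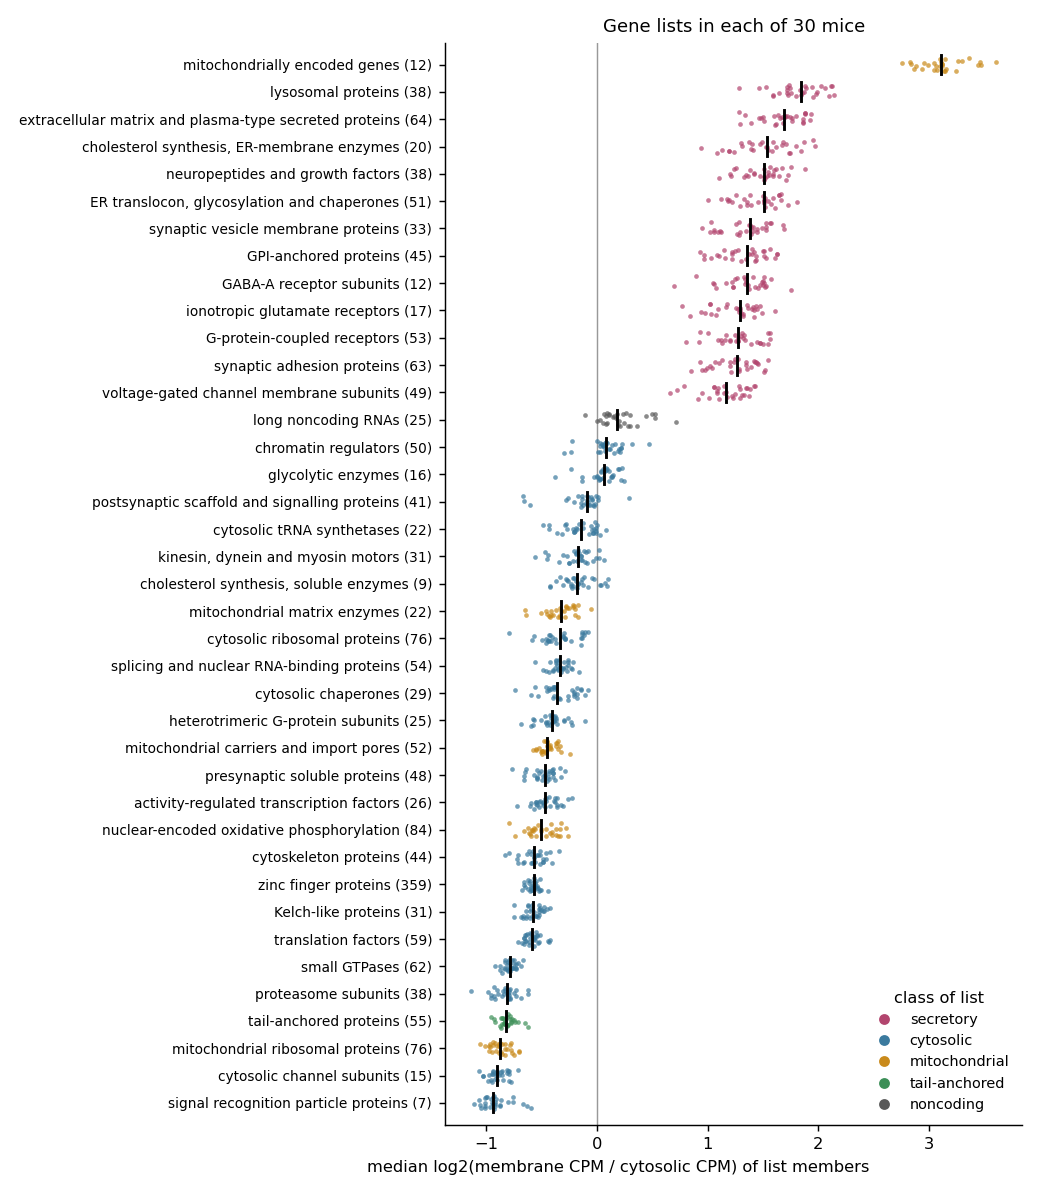
Median log2 ratio of membrane over cytosolic CPM over the members of each gene list (number tested in brackets), 1 point per mouse, with the median of 30 mice as a bar and colours for the class of the list. Every secretory list was above 0 in all 30 mice, and the lists of tail-anchored proteins, small GTPases, proteasome subunits and mitochondrial ribosomal proteins were below 0 in all 30.

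Most lists of cytosolic and nuclear proteins had medians below 0. Of 1041 genes in these lists 28 rose (2.69%) and 137 fell (13.2%), with a median of -0.51. Of 483 genes in the secretory lists 405 rose (83.9%) and 3 fell (0.621%), with a median of 1.39. Over all genes tested 21.9% rose and 9.17% fell, with a median of -0.12. The lists of motors, tRNA synthetases and postsynaptic proteins had medians near that of all genes, at -0.10, -0.14 and -0.15. Of 38 proteasome genes 13 fell and none rose (median -0.82), but only 5 fell with DESeq2 size factors. Of 359 zinc finger genes 40 fell (11.1%, near the 9.17% of all genes tested) and 4 rose (median -0.62). With DESeq2 size factors 21 of them fell, as did 1004 of all 16529 genes. Chromatin regulators and glycolytic enzymes had medians above 0: of 50 chromatin regulators 2 rose and 3 fell (median 0.12), and of 16 glycolytic enzymes 3 rose and none fell (median 0.06), with list medians above 0 in 27 and 24 of 30 mice. The 76 cytosolic ribosomal protein genes had no call in either direction and a median of -0.33. Of 59 translation factor genes 7 fell (11.9%, also near the share of all genes) and 2 rose (median -0.65). The 2 that rose were the eIF2α kinases Eif2ak2 at 1.47 and Eif2ak3 at 1.34 ± 0.05, of which Eif2ak3 (PERK) is an ER membrane protein. Of 44 cytoskeleton genes 8 fell, among them Actg1 at -1.21, and 1 rose, the astrocyte filament gene Gfap. Actb stayed short of 2-fold, at -0.94 ± 0.03. Among 31 motor genes 5 rose (16.1%, below the 21.9% of all genes tested). They were the kinesins Kif5a, Kif5b and Kif1a, the dynein chain Dync1i2 and the myosin Myo6. Kif5a had 2406, 3313 and 3702 CPM in membrane and 597, 845 and 1066 CPM in cytosolic libraries, with no overlap and a log2 fold change of 1.99 ± 0.04, and its protein has no hydrophobic segment by the rule used. Another 5 motor genes fell (16.1%, against 9.17% of all genes), led by the dynein light chains Dynll1 at -1.43 and Dynll2 at -1.19.

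Transcripts of the mitochondrial genome were higher in the membrane fraction, while most nuclear transcripts of mitochondrial proteins were not. Mitochondrially encoded genes took 5.60% to 8.66% of the counts of membrane libraries and 0.680% to 1.28% of those of cytosolic libraries. The means were 7.29% ± 0.77 and 0.978% ± 0.135 (SD, n = 30 each), the share was higher in the membrane library of all 30 mice, and a two-sided sign-flip permutation test gave p = 2e-05, the smallest that 100000 resamples can give. The difference averaged 6.15, 6.17 and 6.71 percentage points within mice 1 to 11, 12 to 22 and 23 to 30. All 12 mitochondrially encoded genes tested rose, with a median of 3.16. The cytochrome oxidase gene mt-Co1 was at 2.97 ± 0.04 and the ribosomal RNA mt-Rnr2 at 3.13, whereas mt-Atp6, whose gene overlaps a neighbour, had a median of only 0.522 CPM in membrane libraries. Of 84 nuclear genes of oxidative phosphorylation 2 rose, Cox6a1 and Uqcrc1 (2.38%, against 21.9% of all genes tested). Another 6 fell (7.14%, against 9.17% of all genes), and the list median was -0.49. Of 76 mitochondrial ribosomal protein genes none rose and 20 fell (median -0.89), with 12 falling under DESeq2 size factors, and for 64 of them the fractions did not overlap on the lower side. Of 52 genes of mitochondrial carriers and import pores 1 rose, the astrocyte glutamate carrier Slc25a18, and 9 fell (median -0.41), with the import chaperone Timm10 lowest at -1.58 ± 0.04. Of 22 matrix enzymes 1, Suclg2 at 1.67, rose.

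Long noncoding RNAs, several of them held in nuclei, scattered widely. Of 25 genes 5 rose (20%, against 21.9% of all genes tested) and none fell (median 0.27, with 16 estimates above 0): Neat1 at 2.04 ± 0.09, Miat at 1.8 ± 0.14, Snhg11 at 1.35, Meg3 at 1.06 ± 0.10 and Rmst at 1.02. Miat had 11.8, 28.8 and 57.9 CPM in membrane and 3.70, 7.51 and 24.3 CPM in cytosolic libraries, and the fractions overlapped for all 5. Malat1, a nuclear speckle RNA, was at 0.93 ± 0.10. How much nuclear RNA the pellet held was not tested.

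Markers of cell types moved between the fractions too. Of 23 astrocyte markers 20 rose (median 2.82), of 20 microglial markers 19 (2.86), of 19 vascular markers 17 (2.98), of 10 markers of oligodendrocyte precursors 7 (1.84), and of 11 markers of blood and choroid plexus 8 (1.8), and none of these fell. Of 22 oligodendrocyte markers 11 rose and 1 fell (1.01), of 24 inhibitory-neuron markers 9 rose and 4 fell (0.14), and of 23 excitatory-neuron markers 6 rose and 7 fell (-0.45). Summed over the 23 astrocyte genes, levels were 12310 to 16400 CPM in membrane and 2128 to 3064 CPM in cytosolic libraries. The 20 microglial genes summed to 1441 to 1864 CPM in membrane and 179 to 280 CPM in cytosolic libraries, and the 20 vascular genes to 388 to 559 CPM in membrane and 60.9 to 121 CPM in cytosolic libraries. The sums did not overlap between fractions for these 3 lists. The 22 oligodendrocyte genes summed to 7126 to 11040 CPM in membrane and 3541 to 5530 CPM in cytosolic libraries, the inhibitory list to 3355 to 4309 and 1647 to 2099 CPM, and the excitatory list to 6929 to 12200 and 7394 to 10560 CPM, in the same order of fractions. The 11 genes of blood and choroid plexus summed to 127 to 4550 CPM in membrane (median 220.5) and 46.2 to 814 CPM in cytosolic libraries (median 80.6), so the fractions overlapped and the highest libraries lay far above the median. No marker was at 0 in all libraries.

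Within the neuronal lists the encoded protein again divided the markers. Other lists divided less clearly. Of blood and choroid plexus markers 3 of 5 with a segment were higher and 5 of 6 without one (medians 2.28 and 1.74). The vascular and oligodendrocyte precursor lists each held only 2 markers without a segment. Excitatory markers with a hydrophobic segment had a median of 1.29, with 5 of 9 higher, among them Slc17a7 and Wfs1 (an ER membrane protein, at 1.63). Those with none had a median of -1.18, with 7 of 13 lower, among them the transcription factor Neurod6 at -1.58. Inhibitory markers with a segment had a median of 1.44 and 9 of 13 were higher, led by Sst, and those with none had a median of -0.83 and 4 of 11 were lower, among them Pvalb at -1.54 ± 0.04, with 9.82, 17.2 and 21.2 CPM in membrane and 40.9, 47.3 and 66.8 CPM in cytosolic libraries. Gad1 and Gad2, the GABA-synthesizing enzymes, stood near 0, at 0.16 ± 0.03 and 0.12 ± 0.03. Medians of astrocyte and microglial markers were above those of neuronal markers on both sides of that division. All 14 astrocyte markers with a segment rose (median 3.17), led by the glutamate transporters: Slc1a2 had 1593, 1966 and 2342 CPM in membrane and 121, 179 and 243 CPM in cytosolic libraries. The 9 astrocyte markers without one were also above 0, with a median of 1.31 and 6 of them higher, such as S100b at 1.99 ± 0.03, Gfap at 1.67 ± 0.05 and Aldoc at 1.31 ± 0.03. Of 16 microglial markers with a segment all rose (median 2.92), with the receptor Cx3cr1 at 2.75 ± 0.04. Only 4 microglial markers had no segment, with 3 higher and a median of 1.37. They ran from Sall1 at 0.10 to Ctss at 3.28, which is also in the lysosomal list. Oligodendrocyte markers with a segment had a median of 1.26 and 10 of 14 were higher. The 8 without one had a median of -0.33, with 1 higher and 1 lower. The 1 higher was the myelin gene Mbp, whose mRNA travels to myelin, at 1.22 ± 0.03. The part of cell makeup in the secretory, lysosomal and matrix lists above, some of whose leading genes are glial or vascular, was not tested. Without the 9 genes that are also glial, vascular or blood markers, 396 of 474 secretory genes were higher and 3 lower, with a median of 1.37.

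**Figure D4:**
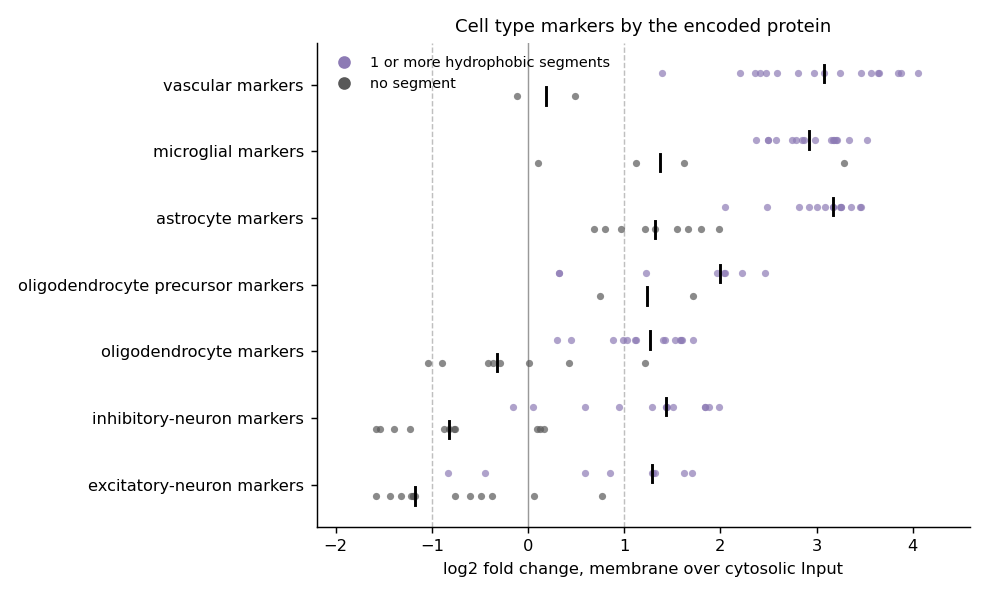
Log2 fold changes of membrane over cytosolic Input for markers of 7 cell types, each gene a point, those encoding 1 or more hydrophobic segments above those encoding none, with medians as bars and dashed lines at 2-fold. Neuronal markers without a segment had medians of -1.18 and -0.83, and astrocyte markers without a segment 1.31.

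Whether the fraction difference itself changed with sleep loss or training was tested in the same fit. For sleep loss (the difference in SD minus that in Sleep mice) no gene of 16529 passed at an adjusted p under 0.05 (0%) by edgeR's quasi-likelihood test, and none by DESeq2. At an unadjusted p under 0.05 there were 741 genes (4.48%). For training (CFC minus NoCFC) 42 genes passed, 3 with a higher difference in CFC mice (0.0181%) and 39 with a lower one (0.236%). At an unadjusted p under 0.05 there were 2499 genes (15.1%). Of the named genes, Dbn1, the actin-binding drebrin, had mean log2 ratios of -0.995 in CFC SD, -0.95 in CFC Sleep, -0.55 in NoCFC SD and -0.63 in NoCFC Sleep mice, and a training term of -0.38 ± 0.06 (adjusted p = 0.0050). Srrm2, a nuclear speckle protein, had ratios of -0.41, -0.28, -0.00 and 0.03 in the same order of groups and a training term of -0.36 ± 0.06. Training terms of Zfc3h1, Epb41l4b and Sirt7 were -0.46 ± 0.08, -0.35 ± 0.06 and -0.40 ± 0.08. On the other side were Rin2 at 0.29 ± 0.06, Tsc22d3 at 0.27 ± 0.06 and the predicted gene Gm6145 at 0.41 ± 0.09. Of the mice that stood apart, 16, 22 and 30 were CFC and 6 was NoCFC. Without these mice, a setting chosen after seeing the data, Rin2, Tsc22d3 and Gm6145 did not pass by edgeR's test (adjusted p = 0.054, 0.12 and 0.12). The named genes with a lower difference still passed there. The predicted gene Gm26917 changed most, at -1.86 ± 0.29, with mean ratios of 4.91 (mice 1 to 11), 2.73 (mice 12 to 22) and 3.22 (mice 23 to 30). Training is tied to the runs of mouse numbers, and within mice 23 to 30, with 4 CFC and 4 NoCFC mice, 347 genes passed, 319 of them with a higher difference in CFC mice. The 9 named genes kept their direction within mice 23 to 30, but none of them passed there. Mice 23 to 30 were also part of the fit that picked these genes, so the shared direction is not an independent check. Gm26917 stood at -0.75 (adjusted p = 0.077), Dbn1 at -0.22 (0.21), Srrm2 at -0.20 (0.35), Zfc3h1 at -0.20 (0.59) and Tsc22d3 at 0.17 (0.52).

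The ribosome captures of the same fractions gave a measure of what is particular to total RNA. The Camk2a capture (HA antibody) and the pS6 capture (antibody to phosphorylated ribosomal protein S6, a mark of active neurons) were fitted with Input over 180 libraries and 18484 genes. The fraction difference in Input was higher than that in the Camk2a capture for 102 genes (0.552%) and lower for 1646 (8.9%), and against the pS6 capture the counts were 155 (0.839%) and 690 (3.73%). Mitochondrially encoded genes had the widest spread of the lists plotted: their median fraction difference was 3.16 in Input, 6.21 in the Camk2a capture and 4.89 in the pS6 capture, and 10 of 12 were lower in Input against either capture. The value of mt-Co1 was 2.97 in Input, 6.09 in the Camk2a capture and 4.91 in the pS6 capture. Cell type markers that the Camk2a capture should lack came next. Medians for oligodendrocyte markers were 1.00 in Input, 2.54 in the Camk2a capture and 1.85 in the pS6 capture, with 20 of 22 lower in Input against the Camk2a and 6 against the pS6 capture. Of 20 microglial markers 18 were lower in Input against the Camk2a capture and of 24 inhibitory-neuron markers 15. Pvalb stood at -1.55 in Input and 1.31 in the Camk2a capture, so that its direction was reversed. The part of RNA carried over from cells that the antibody does not target was not tested.

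The secretory lists were uneven. Of 38 neuropeptide and growth factor genes 12 were called lower in Input against the Camk2a and 1 against the pS6 capture, and of 64 genes of matrix and plasma-type proteins 16 and 3. Median fraction differences of lysosomal genes were 1.78 in Input, 1.6 in the Camk2a capture and 1.82 in the pS6 capture, and 2 and 1 of 38 genes were called lower in Input against the Camk2a and the pS6 capture. For ionotropic glutamate receptors they were 1.24, 1.46 and 1.46, and for tail-anchored proteins -0.85, -0.95 and -0.77, in the same order, with 0 of 55 tail-anchored genes called against either capture. Excitatory-neuron markers had 0 of 23 genes called against either capture. Camk2a was at 0.60, 0.54 and 0.68 in the same order of library types. Grin2b was at 1.40, 2.13 and 2.01, and fell short of a 2-fold difference between Input and either capture. Kif5a was one of the 102 genes with a higher fraction difference in Input than in the Camk2a capture, with 1.98 in Input, 0.84 in the Camk2a capture and 1.40 in the pS6 capture (difference from the Camk2a capture 1.14 ± 0.05, adjusted p = 8.1e-46).

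**Figure D5:**
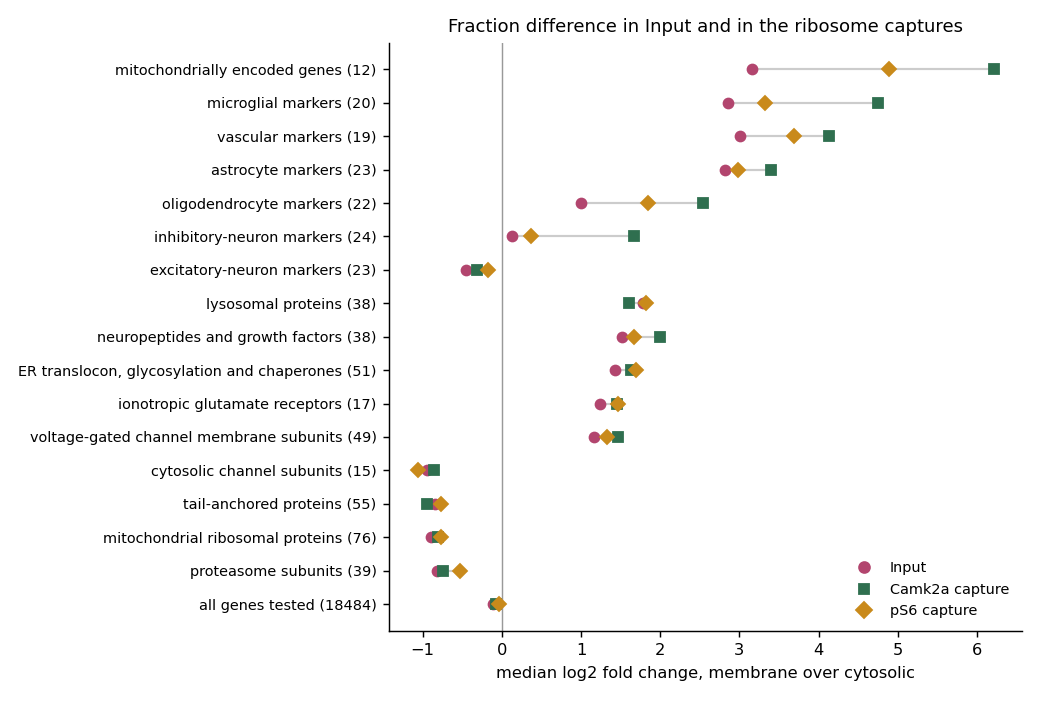
Median log2 fold change of membrane over cytosolic libraries for gene lists (number tested in brackets) in Input, the Camk2a capture and the pS6 capture of the same 30 mice. Medians of mitochondrially encoded genes and of microglial, vascular, astrocyte, oligodendrocyte and inhibitory-neuron markers were higher in both captures, and those of tail-anchored, lysosomal and glutamate receptor genes were close in the 3 library types.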

How the data were processed

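The authors deposited a table of whole-number counts per gene for 180 libraries of 30 mice, made with STAR 2.6.1a and featureCounts (no version given) on GRCm38.p6, with MultiQC 1.6a0, per the submitters' processing notes. The labels' protocols give SMART-seq v4 for the cDNA libraries. Whether counting used strand is not given in the sources used here, and reads of overlapping genes or near-identical copies may be shared.

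The 60 Input libraries were fitted with edgeR 4.0.16 (R 4.3.3, limma 3.58.1): filterByExpr kept 16529 of 54429 genes, libraries were scaled by TMM, and a quasi-likelihood F-test (robust) used mouse number as a block and a fraction effect in each group. P-values were adjusted by Benjamini-Hochberg over all genes tested. CPM are TMM-scaled, and log2 fold changes are membrane over cytosolic. Mouse number pairs the fractions because both were taken from 1 homogenate, per the labels' protocols. Deviations of same-numbered libraries from their group means correlated at 0.0274 to 0.475 (median 0.168; 25 of 30 above 0.1), against a median of -0.00935 for other pairs, and no 2 replicates agreed within sampling noise (lowest chi-square per degree of freedom 2.86 in 196 pairs). DESeq2 1.42.0 was an alternative. The captures were compared in one fit of 180 libraries. The scripts were tested on simulated data.

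Proteins were translated from GENCODE vM21 coding sequences in place of RefSeq proteins. A segment is a stretch of 19 residues with a mean Kyte-Doolittle hydropathy of at least 1.6, and an N-terminal segment a stretch of 12 within residues 2 to 35 with a mean of at least 2. The members and gene lists were chosen with earlier results of these data known. Named were the 15 genes each way with the largest fold among those called, with an average log2 CPM of at least 3 and the same direction in all 30 pairs (passing over predicted genes and clone names), up to 6 genes each way with the smallest p for training, and any list member; some genes are not reported here. Counts carry no molecular identifiers, so PCR copies cannot be told from separate molecules.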

Additional observations from a re-analysis of the deposited data

Results flagged for a closer look

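Within a training by sleep group, 26 of 320 sets of 7 or 8 values had 1 value far from the others by Dixon's criterion, which chance gives in about 1 in 20 sets. The highest membrane library of CFC Sleep mice held 23.95 M counts, with the next at 17.76 M.

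Ratios of gene lists are given as the median log2 ratio of membrane over cytosolic CPM in the mouse that stood apart. Most came from a few animals, mice 6, 16 and 22 among them, whose profiles were also among the 4 farthest from the other mice. Among CFC SD mice, mouse 22 had a ratio of 2.35 for astrocyte markers and of 1.19 for oligodendrocyte precursor markers, and mouse 19 of -0.38 for glycolytic enzymes. Among CFC Sleep mice, mouse 16 had -0.66 for postsynaptic proteins, -0.43 for translation factors, -0.44 for motors and -0.23 for chromatin regulators. Mouse 17 had -0.44 for zinc finger proteins and mouse 26 had 0.72 for long noncoding RNAs. Among NoCFC SD mice, mouse 28 had -0.14 for inhibitory-neuron and mouse 10 had 0.24 for excitatory-neuron markers. Among NoCFC Sleep mice, mouse 6 had 0.29 for postsynaptic proteins, -0.65 for mitochondrial matrix enzymes and -0.23 for glycolytic enzymes.

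Ratios of single genes stood apart as well. In CFC SD mice Sdc4 had a value of 2.82 in mouse 22. In CFC Sleep mice mouse 17 had 3.41 for Sparc, 3.16 for Apoe and -1.54 for Clvs1, mouse 16 had -1.41 for Rgs4 and -1.39 for Zwint, and mouse 25 had 5.47 for Ly6a. In NoCFC SD mice Gng2 had a value of -1.66 in mouse 28. In NoCFC Sleep mice mouse 6 had -1.04 for Vsnl1, -2.03 for Calm2 and -2.08 for Zwint.

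The fraction difference varied with training for 9 named genes by edgeR's interaction term (CFC minus NoCFC, log2): Rin2 at 0.29, Tsc22d3 at 0.27, Gm6145 at 0.41, Dbn1 at -0.38, Gm26917 at -1.86, Srrm2 at -0.36, Zfc3h1 at -0.46, Epb41l4b at -0.35 and Sirt7 at -0.40. It also varied between library types: 102 genes had a higher and 1646 a lower difference in Input than in the Camk2a capture, and 155 a higher and 690 a lower one than in the pS6 capture.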

How the results depend on the processing

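No named gene called in the main analysis or under an alternative changed sign between them. Genes near 0 did, without a call: Dlg4, at -0.01, was above 0 with DESeq2 size factors and without mice 6, 16, 22 and 30, among other settings. The count of 1516 genes lower in the membrane fraction depended on scaling: it was 1004 with DESeq2 size factors, and 888 within mice 12 to 22, where 81.6% of called genes were higher. DESeq2's own test moved the median of all genes by 0.10, fitting without a filter by 0.10 and mice 12 to 22 alone by 0.13. The mouse block mattered little for the fraction difference (3642 higher and 1482 lower without the replicate block), for the sleep term (0 and 0), for Input against the Camk2a capture (98 and 1607) and for Input against the pS6 capture (139 and 698). For training, 1 gene was higher and 24 lower without the block, 9 lower with DESeq2 size factors, 150 higher and 82 lower by DESeq2's test, 38 and 595 with no filter, 319 higher within mice 23 to 30, and 6 higher and 23 lower without mice 6, 16, 22 and 30, a setting chosen after seeing the data. With no filter, sleep loss gave 1 gene higher and 56 lower. Against the pS6 capture, 242 genes were higher without mitochondrially encoded genes. At a hydropathy of 1.8 the share called higher in the class of 1 other segment was 49.0%. The causes were not tested. Depth limits genes near 1 CPM, such as mt-Atp6 and Rmst.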
